A study of Mus musculus with 8 samples.

Results

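The genes described here encode the pores and accessory subunits of potassium, calcium, chloride and sodium channels and of the transient receptor potential (TRP) channels, in mouse lung with and without the nitric oxide synthases. They are the listed genes whose symbol begins with Kcn or Cacn, or is Clcn, Trpc, Trpm, Trpv, Piezo or Scn followed by a digit. Of 15728 genes listed, 72 met that spelling, 2 of which (Scn7a and Kcnj8) were set aside by name. Another 13 had a mean below 1 count per 1000000 reads (CPM) over the 8 libraries, which left 57, and 52 of these are described here. No Piezo gene is among them. By role the 52 comprise 29 potassium channel genes, 6 calcium channel genes, 9 TRP channels, 5 members of the Clcn family and 2 sodium channel genes. The last, Trpc4ap, encodes a TRPC4-associated protein that is no channel and was matched by its spelling alone.

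Lungs of 4 wild type C57BL/6J mice were set against lungs of 4 triply n/i/eNOSs-/- mice, in which the genes of the endothelial, inducible and neuronal nitric oxide synthases are deleted. All 8 animals were unexposed, 4 weeks old and labelled as of C57BL/6J background, and the labels give no sex, litter or library batch. Each lung gave 1 CAGE library (cap analysis of gene expression), a method that counts the capped 5′ ends of RNA, so a CPM does not grow with gene length and levels of different genes can be set side by side. The comparison asked which lung transcripts differ when all 3 of these enzymes are missing.

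Potassium channels let potassium leave the cell and hold the membrane potential negative. When they close in pulmonary arterial smooth muscle, the membrane depolarises, voltage-gated calcium channels open and the vessel contracts. Nitric oxide acts on the same cells through soluble guanylate cyclase and cyclic GMP, which lower calcium and open potassium channels, while TRP channels admit calcium in response to stretch, osmotic swelling, lipids or emptied stores. The Clcn proteins are chloride channels of the cell surface or chloride-proton exchangers of endosomes and lysosomes.

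Wild type libraries held 15598154 to 18593913 reads, and every knockout library was shallower (13014134 to 15096188 reads). A gene at 3 reads, taken as the lowest countable level, had 0.161 to 0.231 CPM, and the lowest mean among the 52 genes was 1.08 CPM. Nos3, the endothelial synthase, was lower in the knockout but still counted (5.56 to 8.83 CPM, against 18.2 to 22.8 CPM in wild type), and Nos1 and Nos2 were not analysed here. Lung markers were high in all libraries: summed over 7 endothelial genes the libraries held 1831 to 2043 CPM, and over 6 alveolar type 2 genes 45574 to 94192 CPM. For the clock gene Arntl, knockout replicate 1 was unlike the rest of its group, with 7.22 CPM where the other 3 had 20.5 to 22.8 CPM, and likewise for the clock gene Dbp (40.3 CPM, the other 3 4.69 to 6.21 CPM). In whole lung, fewer cells of a type and less RNA per cell cannot be told apart.

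In the knockout 10 of the 52 channel genes fell, 6 rose and 36 did not pass the test. The decreases with the smallest adjusted p were in Kcnk3, the two-pore potassium channel of pulmonary arteries, in the calcium-permeable channels Trpv4, Trpv6 and Trpc1, in the potassium channel subunit Kcns3 and in the calcium channel subunit Cacnb3. Trpc6, Kcne2, Scn3b, Scn3a, Kcna2 and Clcn3 were the genes that rose. Among the 9 TRP channels 3 fell and 1 rose, among the 29 potassium channel genes 6 fell and 2 rose, and among the 6 calcium channel genes 1 fell. Both sodium channel genes described rose, with overlapping genotypes and calls that ended after dropping some single libraries. The log2 fold changes, knockout minus wild type on log2(CPM + 0.5), ran from -0.99 to 0.60.

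**Figure D1:**
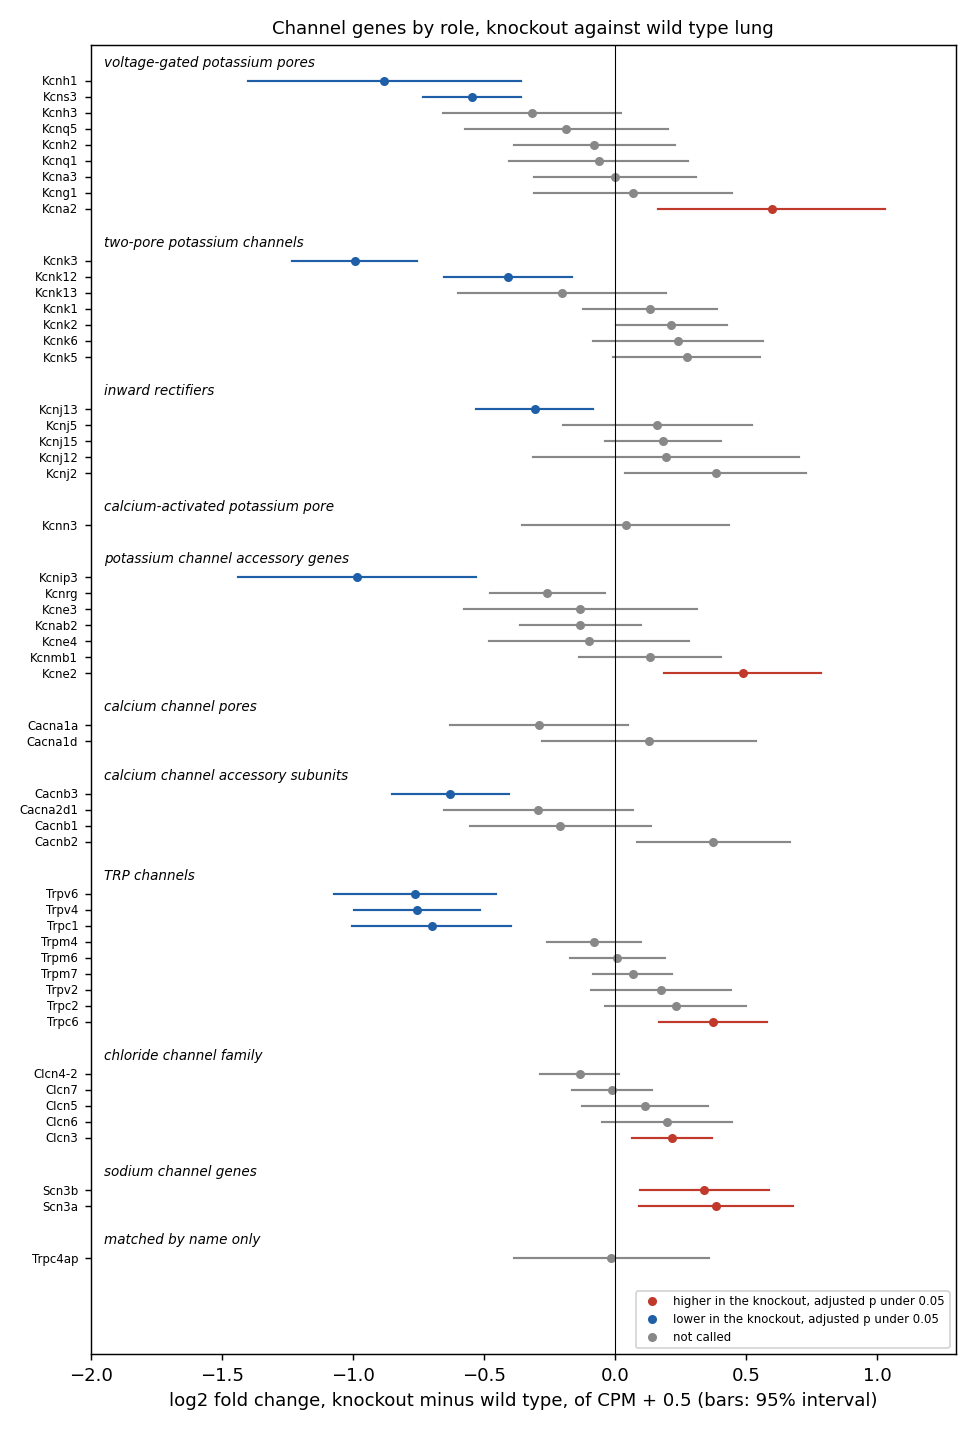
Log2 fold change of each of the 52 genes (x axis, knockout minus wild type on log2 of CPM + 0.5), in blocks by role; points are limma estimates, bars their 95% intervals, red and blue the 6 higher and 10 lower genes at an adjusted p under 0.05. On this scale the decreases reach -0.99 (Kcnk3), while no increase is above 0.60 (Kcna2).

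These counts are to be read against the whole table. Of 14065 genes tested, 30.9% passed an adjusted p of 0.05 (limma, Benjamini-Hochberg over all genes tested), against 30.8% of the 52, so the share that changed was near the background. By direction, 16.6% of all genes and 11.5% of the 52 were higher, while 14.3% of all genes and 19.2% of the 52 were lower. The genotypes did not overlap for 12 of the 52 genes (23.1%), against 31.2% of all genes tested. The median log2 fold change of the 52 was -0.0053, against 0.013 over all genes, and the median absolute value among those called was 0.57 against 0.42. The 52 were also lower in level, with a median of 7.27 CPM against 19.2 CPM over all genes tested. The part of level in the size of the called changes was not tested. All 52 passed the filter on low values, Kcnip3 only through its wild type libraries. The number of higher genes was 2 rather than 6 after dropping 1 of 5 libraries (wild type replicate 1, 2 or 4, knockout replicate 2 or 3), while the number of lower genes stayed between 8 and 10. Without knockout replicate 1 the counts were 5 higher and 10 lower. Calls over all genes tested changed as well, from 4351 with 8 libraries to between 3385 and 4487 with 1 left out. The p-values measure the spread between these 8 samples.

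Mean levels ran from 1.08 to 117 CPM. Of the 52, Trpc4ap (117 CPM) and Scn3b (113 CPM) had the highest means over the 8 libraries, followed at some distance by Trpm7 (47.1 CPM), Kcnj15 (45.0 CPM), Clcn7 (29.3 CPM) and Clcn4-2 (25.03 CPM). Neighbouring means differed by less than 1 SD over the animals of either genotype for the first pair, for Trpm7 and Kcnj15, and along the order Clcn4-2, Kcnk1, Clcn3 and Kcnk2 (25.03 to 23.2 CPM). At the other end 9 genes lay between 1 and 2 CPM, where 2 were called, and 11 lay between 2 and 5 CPM, where 3 were called. Between 5 and 10 CPM 5 of 16 were called, between 10 and 50 CPM 5 of 14, and above 50 CPM 1 of 2. Over all genes tested the called share rose with level, from 21.3% between 1 and 2 CPM to 30.4% between 10 and 50 CPM. Of the 52, those just inside the limit on the mean were Kcnn3 (1.08 CPM), Kcnj12 (1.10 CPM) and Kcnh3 (1.14 CPM). Just outside it was Kcnmb2, an accessory subunit of the large-conductance calcium-activated potassium channel, with a mean of 0.949 CPM. Kcnmb2 had 0.36, 0.11, 0.23 and 0.19 CPM in wild type and 1.66, 2.10, 1.10 and 1.84 CPM in the knockout.

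**Figure D2:**
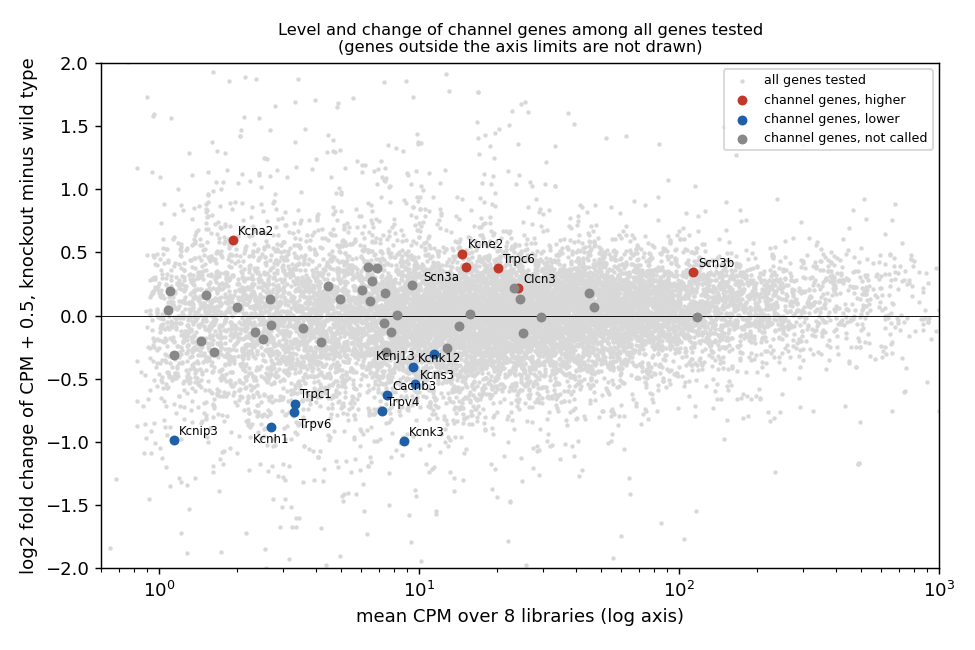
Mean CPM over the 8 libraries (x axis, log scale) against log2 fold change, knockout minus wild type (y axis), for all 14065 genes tested (light grey, those within the axes) and the 52 channel genes (red higher, blue lower, grey not called). The lower genes lie between 1.14 and 11.4 CPM, and 5 of the 6 higher genes lie above 14 CPM.

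Among TRP channels, Trpv4 opens on osmotic swelling, warmth and mechanical load and is known from lung endothelium and airway epithelium. It stood at 9.51, 7.74, 9.47 and 10 CPM in wild type replicates 1 to 4 and at 4.64, 5.14, 5.66 and 5.46 CPM in knockout replicates 1 to 4. All knockout libraries lay below all wild type libraries. Trpv4 fell by 0.76 on the log2 scale (SE 0.110, adjusted p = 0.000624).

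Trpv6, an unusually calcium-selective channel of epithelia, had 5.26, 3.93, 4.50 and 3.46 CPM in wild type and 2.58, 2.03, 2.28 and 2.31 CPM in the knockout. Its genotypes did not overlap, and the knockout animals lay closer together (SD 0.225 CPM) than the wild type animals (SD 0.775 CPM). Its log2 fold change was -0.76 (SE 0.141, adjusted p = 0.00252). Trpc1, a subunit of cation channels opened downstream of phospholipase C, had 4.49, 4.19, 4.50 and 3.72 CPM in wild type and 2.05, 2.98, 2.62 and 2.07 CPM in the knockout. Again the highest knockout value was below the lowest wild type value, and Trpc1 fell by 0.70 (SE 0.138, adjusted p = 0.00355).

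Trpc6 is a calcium-permeable channel opened by diacylglycerol and is needed for the acute constriction of lung vessels under low oxygen. In contrast to Trpc1 it rose. Its values were 15.7, 17.4, 20.3 and 16.5 CPM in wild type and 20.5, 23.7, 23.3 and 23.5 CPM in the knockout. The genotypes were parted only narrowly, by wild type replicate 3 and knockout replicate 1. The log2 fold change was 0.37 (SE 0.0934, adjusted p = 0.0116), and Trpc6 was the one higher gene whose call stood under every alternative run.

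The other 5 TRP genes did not pass the test. Trpm7, a cation channel fused to a kinase and the most abundant of the family, had 46.3, 48.7, 46.7 and 42.3 CPM in wild type and 48.4, 51.5, 48.2 and 44.9 CPM in the knockout. The groups overlapped, with knockout replicate 2 alone above all wild type libraries, and the interval of its log2 fold change was -0.08 to 0.22. Trpm6, a magnesium channel related to Trpm7, had means of 15.6 ± 0.834 and 15.7 ± 1.10 CPM (wild type and knockout, SD, n = 4 each, as in all such pairs that follow). Trpm4, a calcium-activated channel for monovalent cations, had 14.6 ± 0.552 and 13.8 ± 0.961 CPM, and Trpv2 6.90 ± 0.593 and 7.91 ± 1.25 CPM. The gene listed as Trpc2 had 4.05 ± 0.364 and 4.86 ± 0.644 CPM. Its identifier is that of Xntrpc in GENCODE M21, which spans both Xndc1 and a separate Trpc2 on the same strand, so the value cannot be assigned to Trpc2. Summed over the 9 genes the family held 115 to 128 CPM in wild type and 117 to 128 CPM in the knockout, so the 3 decreases were not seen in the total.

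Because CAGE counts transcripts at their starts, the bases before the annotated start of the 4 TRP genes that changed are shown, from RefSeq (GRCm38.p6), read 5′ to 3′ on the strand of the gene and ending at the base before the start. Capitals mark a GC box (GGGCGG on either strand) or, in Trpv6, a ROR element (AGGTCA on either strand). Trpv4 lies on the minus strand and its window is chr5:114658422-114658671. Trpv6 (minus strand) has chr6:41636406-41636655, Trpc6 (plus strand) chr9:8543892-8544141 and Trpc1 (minus strand) chr9:95750376-95750598, the last without 27 bases next to the start that are annotated as exon.
Trpv4: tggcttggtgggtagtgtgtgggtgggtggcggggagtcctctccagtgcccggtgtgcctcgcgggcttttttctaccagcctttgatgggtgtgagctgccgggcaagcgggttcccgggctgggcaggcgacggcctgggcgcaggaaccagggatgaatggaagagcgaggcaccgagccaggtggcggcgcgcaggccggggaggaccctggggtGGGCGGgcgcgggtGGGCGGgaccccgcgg
Trpv6: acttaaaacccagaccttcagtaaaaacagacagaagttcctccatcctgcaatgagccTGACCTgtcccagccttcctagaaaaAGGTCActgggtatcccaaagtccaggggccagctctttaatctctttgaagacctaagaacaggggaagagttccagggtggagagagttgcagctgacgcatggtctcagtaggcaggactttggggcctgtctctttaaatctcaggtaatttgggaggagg
Trpc1: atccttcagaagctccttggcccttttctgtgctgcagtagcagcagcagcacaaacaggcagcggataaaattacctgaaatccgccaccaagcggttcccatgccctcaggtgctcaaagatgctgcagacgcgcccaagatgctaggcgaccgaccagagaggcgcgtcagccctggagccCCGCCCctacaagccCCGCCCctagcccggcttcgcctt
Trpc6: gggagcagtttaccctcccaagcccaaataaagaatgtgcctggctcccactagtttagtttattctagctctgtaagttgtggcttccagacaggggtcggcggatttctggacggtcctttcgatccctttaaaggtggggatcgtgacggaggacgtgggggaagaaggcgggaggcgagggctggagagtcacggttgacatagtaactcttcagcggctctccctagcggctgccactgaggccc
The 2 GC boxes of Trpv4 begin 30 and 16 bases before the start, and a further match spans the start. In Trpc1 they begin 66 and 51 bases before it, and a further match, 22 bases before it, lies in the exon bases not shown. The 2 ROR elements of Trpv6 begin 191 and 165 bases before the start, and neither motif is in the window of Trpc6. GC boxes are frequent, with a match in 35.7% of all 32851 RefSeq promoters of 300 bases, and ROR elements were in 16.3%. A match describes letters and no binding.

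For the whole set, 42 of the 52 genes, 13 of them called, had an entry in the RefSeq promoter table, with 62 promoters of 300 bases (250 before and 50 after the start). In these promoters GC made up a median of 56.2% of the 250 bases before the start, against 52.4% for all promoters. GC boxes were in 45.2% of these promoters (25 genes), against 35.7% of all promoters. CCAAT boxes (CCAAT) were in 22.6% (13 genes), against 37.4% of all, and TATA boxes (TATAAA) in 8.06% (5 genes), against 13.6%. Of the elements read by the circadian clock, the E-box CACGTG was in 9.68%, against 7.15% of all, and was found for Clcn6, Clcn7, Kcne4, Kcnj2, Kcnk5 and Trpm7, none of them called. ROR elements were in 4.84%, against 16.3% of all, and were found for Clcn7, Kcnh1 and Trpv6. A D-box (TTATGNAA, 3.39% of all) and a cyclic AMP response element (TGACGTCA, 1.79% of all) were each found in 1 promoter. These were separate promoters of Clcn3. Both strands were searched for each motif.

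In people, Kcnk3 carries a background potassium current that sets the resting potential of pulmonary arterial smooth muscle. Its loss of function is a known cause of heritable pulmonary arterial hypertension. In these mouse lungs Kcnk3 had 12.4, 12.5, 11.7 and 10.5 CPM in wild type and 5.70, 6.69, 5.18 and 5.15 CPM in the knockout. Every knockout library was far below every wild type library, and the ratio of the means was 2.07. That ratio was larger for the less abundant Kcnip3 (2.77) and Kcnh1 (2.11). The decrease of Kcnk3, 0.99 on the log2 scale (SE 0.109, adjusted p = 9.37e-05), had the smallest adjusted p of the 52 genes.

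Kcnk12, a two-pore relative that gives little current by itself, had 12.2, 9.47, 11.3 and 10.5 CPM in wild type and 9.27, 7.10, 7.52 and 8.30 CPM in the knockout. The genotypes were parted narrowly, by wild type replicate 2 and knockout replicate 1. Kcnk12 fell by 0.41 (SE 0.111, adjusted p = 0.0170), a call that ended without wild type replicate 1 (adjusted p = 0.0538, over all alternatives 0.00932 to 0.0538). The other 5 two-pore genes were not called. The most abundant, Kcnk1, had 18.4, 25.3, 26.7 and 23.3 CPM in wild type and 23.9, 25.9, 28.9 and 23.5 CPM in the knockout, with wide overlap. The stretch- and lipid-activated Kcnk2 had 21.4 ± 2.22 and 24.97 ± 2.66 CPM (log2 fold change 0.22, 95% interval 0.00 to 0.43, adjusted p = 0.114). It shares its first bases with the transcript A430027H14Rik, which overlaps it on the opposite strand. Kcnk5, Kcnk6 and Kcnk13 had log2 fold changes of 0.27, 0.24 and -0.20.

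Both lung markers and position were read beside these genes. The 10 genes of the heart-like muscle in pulmonary vein walls, which like the arteries holds Kcnk3, summed to 410 to 632 CPM in wild type and 374 to 583 CPM in the knockout. Of these, Myh7 and Myh6 rose and Nppa and Sln fell. Nppa had at least 32.2 CPM in every wild type library and at most 0.14 CPM in the knockout, below the level of 3 reads. The 8 smooth muscle genes summed to 336 to 357 CPM and 274 to 390 CPM, and 1 of them (Tagln) fell. Of the 7 ciliated cell genes 6 fell, with sums of 557 to 620 CPM and 348 to 428 CPM. Of the 7 endothelial genes 1 rose. Of the 6 alveolar type 2 genes 3 fell and 1 rose, their sum going from 77573 to 94192 CPM to 45574 to 57641 CPM. Most of that sum was Sftpc, whose mean went from 75406 to 40739 CPM. Slc34a2 and Sftpa1 also fell, Abca3 rose, and Lamp3 and Sftpb were not called. Of the 5 alveolar type 1 genes 2 rose and 1 fell, their sum going from 6144 to 6667 CPM to 7124 to 7844 CPM. Most of the type 1 sum was Hopx, whose mean went from 4555 to 5804 CPM. Of the 5 club cell genes 2 fell (Muc5b and Scgb3a1). Of the 5 T and NK cell genes 3 fell, with sums of 47.5 to 55.6 CPM and 33.7 to 44.1 CPM, and of the 5 B cell genes 2 fell, with sums of 93.5 to 142 CPM and 34.0 to 125 CPM. Among platelet genes 2 of 5 fell, among red cell genes 2 of 4 fell and 1 rose, and among fibroblast genes 1 of 5 rose and 1 fell. Lists of macrophage, nerve and neuroendocrine genes each had 1 gene that rose, those of mesothelium and skeletal muscle 1 that fell, and those of neutrophils and mast cells none. Over all genes tested 16.6% rose and 14.3% fell, and no marker list was tested against these shares. The part of these cell types in the channel results was not tested.

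Kcnk3 (chr5:30588170-30625271) and Trpv4 (chr5:114622152-114658421), both in GRCm38, lie on the chromosome that carries Nos1 and Nos3. In GENCODE M21, Trpv4 lies 3.12 Mb from Nos1 and Kcnk3 6.20 Mb from Nos3, while Kcnh2 lies 13.2 kb and Cacna2d1 7.99 Mb from Nos3, and neither of these passed the test. Within 10 Mb of a Nos gene, a distance chosen after the values were seen, 29.2% of tested genes were called, against 31.0% of the others. By gene the share was 35.5% of 124 genes around Nos3, 29.1% of 220 around Nos1 and 26.9% of 309 around Nos2. What position contributes to the values of Kcnk3 and Trpv4 was not tested.

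**Figure D3:**
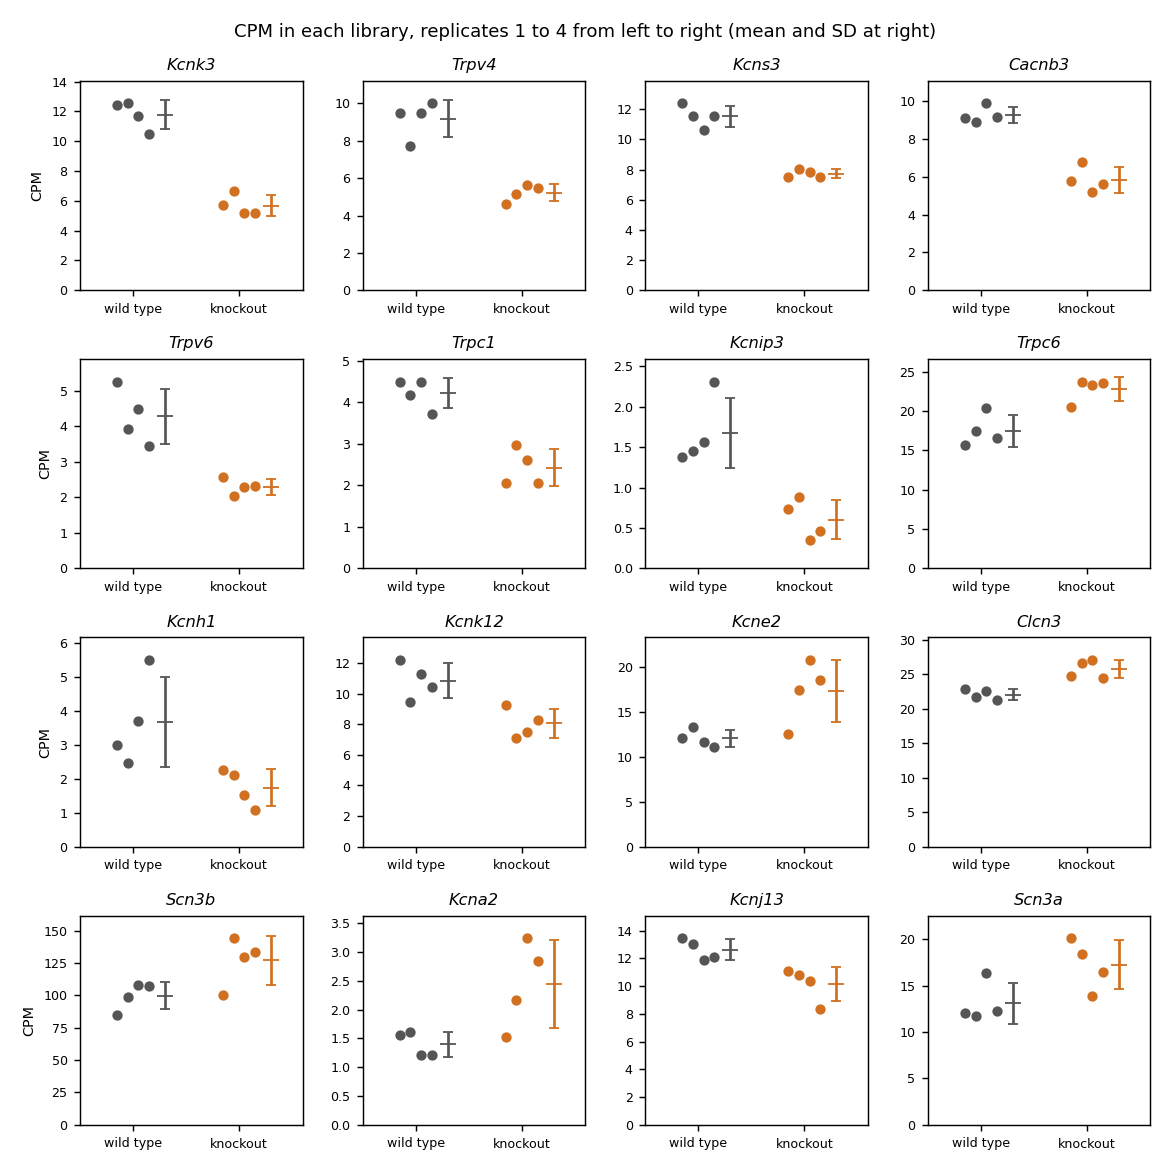
CPM in each library (y axis, from 0) for the 16 called channel genes, wild type in grey and knockout in orange, replicates 1 to 4 from left to right, with mean and SD beside them. For Kcnk3 the libraries lie between 5.15 and 6.69 CPM in the knockout and between 10.5 and 12.5 CPM in wild type, whereas for Kcne2 and Scn3b knockout replicate 1 sits among the wild type libraries.

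Of the 9 voltage-gated potassium pores described 2 fell and 1 rose (33.3%, against 30.9% of all genes tested). Kcns3 is an electrically silent subunit that joins delayed rectifier pores in pulmonary artery smooth muscle and changes their gating, and it was the most abundant of the 9. It had 12.4, 11.6, 10.6 and 11.54 CPM in wild type and 7.49, 8.05, 7.87 and 7.53 CPM in the knockout. The 4 knockout values differed little among themselves (SD 0.270 CPM) and lay below every wild type value. Kcns3 fell by 0.54 (SE 0.0854, adjusted p = 0.000963).

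Kcnh1, a voltage-gated channel best known from brain, had 2.99, 2.47, 3.70 and 5.51 CPM in wild type and 2.25, 2.10, 1.52 and 1.08 CPM in the knockout. It was highest in wild type replicate 4 and the groups did not overlap. Kcnh1 fell by 0.88 (SE 0.237, adjusted p = 0.0163). The gene overlaps Hhat on the opposite strand, which had 0.573 ± 0.258 and 0.528 ± 0.274 CPM. How reads were assigned between these genes is not known. With the replicate number as a block the adjusted p of Kcnh1 was 0.0524 (0.00247 to 0.0524 over all alternatives).

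Kcna2, a low-threshold delayed rectifier, had 1.56, 1.61, 1.21 and 1.22 CPM in wild type and 1.52, 2.16, 3.24 and 2.84 CPM in the knockout. Knockout replicate 1 lay within the wild type range and the other 3 above it. Kcna2 rose by 0.60 (SE 0.197, adjusted p = 0.0393), a call that ended with the replicate block and after dropping each library in turn, knockout replicate 1 excepted (0.00713 to 0.111 over all alternatives).

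The other 6 voltage-gated pores were not called. The heart and vessel channel Kcnh2 had 2.78 ± 0.349 and 2.61 ± 0.369 CPM, the epithelial and cardiac Kcnq1 7.53 ± 1.52 and 7.13 ± 1.08 CPM, and the lymphocyte channel Kcna3 8.22 ± 1.02 and 8.29 ± 1.498 CPM. For Kcna3 the log2 fold change was 0.00 with an interval of -0.31 to 0.31. Kcnh3, Kcnq5 and Kcng1 had means of 1.14 to 2.51 CPM over the 8 libraries and log2 fold changes of -0.32 to 0.07.

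Of the 5 inward rectifiers 1 fell. Kcnj13, an inward rectifier of ion-transporting epithelia, had 13.5, 13.0, 11.9 and 12.1 CPM in wild type and 11.1, 10.8, 10.4 and 8.38 CPM in the knockout. Its lowest wild type library was above its highest knockout library. It fell by 0.31 (SE 0.102, adjusted p = 0.0407). Kcnj13 lies within Gigyf2 on the opposite strand, which was not called (27.5 ± 0.365 and 28.3 ± 2.30 CPM). The call ended without any of wild type replicates 1 to 4 and without knockout replicate 3 or 4 (0.0198 to 0.104 over all alternatives). Kcnj15, the most abundant potassium channel gene of the 52, had 39.5, 48.9, 40.4 and 39.8 CPM in wild type and 42.9, 42.9, 55.1 and 50.9 CPM in the knockout. The groups overlapped through wild type replicate 2, and Kcnj15 was not called (log2 fold change 0.18, adjusted p = 0.194). Kcnj2, the classical strong inward rectifier, had 5.40 ± 0.7001 and 7.30 ± 1.68 CPM (adjusted p = 0.0859), and Kcnj5 and Kcnj12 had log2 fold changes of 0.16 and 0.19. Kcnn3, the one calcium-activated pore among the 52, had 0.90, 1.29, 0.98 and 1.03 CPM in wild type and 0.99, 1.01, 1.59 and 0.85 CPM in the knockout, with full overlap.

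Of the 7 accessory genes of potassium channels 1 fell and 1 rose (28.6%, against 30.9% of all genes tested). Kcnip3, a calcium-binding protein that attaches to A-type potassium channels and also represses transcription, had 1.38, 1.45, 1.56 and 2.31 CPM in wild type and 0.73, 0.88, 0.35 and 0.46 CPM in the knockout. It was above 1 CPM in all 4 wild type libraries and in no knockout library, which is how it passed the filter. Kcnip3 fell by 0.98 (SE 0.206, adjusted p = 0.00485). Kcne2, a small subunit that changes the gating of voltage-gated pores, had 12.1, 13.3, 11.7 and 11.1 CPM in wild type and 12.5, 17.5, 20.8 and 18.5 CPM in the knockout. Knockout replicate 1 lay within the wild type range, and the other 3 were above it. Kcne2 rose by 0.49 (SE 0.137, adjusted p = 0.0195), and by 0.63 without knockout replicate 1 (adjusted p = 0.00105). The call ended without wild type replicate 4 or knockout replicate 3 (up to 0.0574 over all alternatives).

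None of the other 5 accessory genes was called. Kcnrg, which interferes with the assembly of voltage-gated channels, had 14.0 ± 1.01 and 11.6 ± 1.35 CPM (adjusted p = 0.0714). Kcnmb1, the smooth muscle subunit of the large-conductance channel on which cyclic GMP is known to act, had 4.69 ± 0.214 and 5.24 ± 0.908 CPM, with an interval of the log2 fold change of -0.14 to 0.40. Kcnab2, Kcne3 and Kcne4 had log2 fold changes of -0.13, -0.13 and -0.10. Summed over the 29 potassium channel genes the libraries held 228 to 243 CPM in wild type and 225 to 249 CPM in the knockout.

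Among calcium channel genes, Cacnb3 fell. It encodes a cytoplasmic β subunit that brings voltage-gated pores to the membrane and sets their gating. Its values were 9.09, 8.87, 9.87 and 9.17 CPM in wild type and 5.76, 6.76, 5.18 and 5.61 CPM in the knockout. All knockout libraries were well below all wild type libraries. Cacnb3 fell by 0.63 (SE 0.102, adjusted p = 0.00115).

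Its relative Cacnb2 pointed the other way, with 5.89 ± 0.518 and 7.87 ± 1.54 CPM, and just missed the threshold (log2 fold change 0.38, adjusted p = 0.0526). It passed under TMM and median-ratio scaling, with edgeR and with DESeq2, and without knockout replicate 4. Gm10849, also listed, overlaps Cacnb2 on the opposite strand and matches its first bases. As strand use is not given, how reads were assigned between them is uncertain. Cacnb1 had 4.52 ± 0.591 and 3.89 ± 0.885 CPM. It shares bases with the listed Gm11629, which overlaps it on the opposite strand. Cacna2d1, the extracellular α2δ subunit, had 8.25 ± 1.34 and 6.70 ± 1.39 CPM (adjusted p = 0.198).

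Both calcium channel pores among the 52 were low. The L-type pore Cacna1d had 3.23, 1.77, 2.60 and 2.5 CPM in wild type and 3.05, 3.18, 1.93 and 3.07 CPM in the knockout, and the groups overlapped. Cacna1a, the pore of P/Q-type channels, had 1.85 ± 0.354 and 1.41 ± 0.154 CPM. Neither was called.

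Of the 5 Clcn genes only Clcn3 passed the test. It encodes a chloride-proton exchanger of endosomes and synaptic vesicles, and had 22.9, 21.7, 22.6 and 21.2 CPM in wild type and 24.8, 26.7, 27.1 and 24.4 CPM in the knockout. The groups did not overlap, and Clcn3 had the smallest spread among wild type animals of the 52 genes (a coefficient of variation of 3.46%). Its increase was small, 0.22 on the log2 scale (SE 0.0697, adjusted p = 0.0348). The call ended with DESeq2, without any of wild type replicates 1 to 4 and without knockout replicate 2 or 3 (0.0319 to 0.0977 over all alternatives). Clcn7, the lysosomal exchanger and the most abundant of the family, had 30.9, 29.5, 30.2 and 27.1 CPM in wild type and 27.9, 30.6, 28.2 and 30.1 CPM in the knockout. These ranges overlapped almost wholly, with an interval of the log2 fold change of -0.17 to 0.14. Clcn4-2, Clcn5 and Clcn6, exchangers of the endosomal and lysosomal membranes, had log2 fold changes of -0.13, 0.12 and 0.20.

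Sodium channel genes came in by their symbol. Scn3b, a β subunit that modulates sodium channel pores, was the most abundant channel gene of the 52, with 85.1, 98.8, 108 and 107 CPM in wild type and 100.3, 144, 129.8 and 134 CPM in the knockout. Knockout replicate 1 lay within the wild type range, and the other 3 were above it. Scn3b rose by 0.34 (SE 0.112, adjusted p = 0.0384) and by 0.45 without knockout replicate 1 (adjusted p = 0.00377). The call ended after dropping replicate 1 or 2 of wild type, or any of replicates 2 to 4 of the knockout (up to 0.107 over all alternatives).

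Scn3a, a sodium channel pore known from developing neurons and endocrine cells, had 12.02, 11.7, 16.4 and 12.3 CPM in wild type and 20.1, 18.5, 13.9 and 16.5 CPM in the knockout. Its groups overlapped through wild type replicate 3 and knockout replicate 3. It rose by 0.39 (SE 0.133, adjusted p = 0.0471), the call nearest the threshold among the 52. That call ended with no filter on low values, with the replicate block, and after dropping replicate 1, 2 or 4 of either genotype (0.0165 to 0.118 over all alternatives).

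Trpc4ap, the abundant non-channel gene, varied more between animals than between genotypes. It had 101, 101, 115 and 153 CPM in wild type and 141, 141, 91.1 and 95.2 CPM in the knockout. High and low libraries occurred in both groups, and the means were 117 ± 24.6 and 117 ± 27.7 CPM.

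Seen by library, knockout replicate 1 held the lowest knockout value for 4 of the 6 higher genes (Trpc6, Kcne2, Scn3b and Kcna2). Whether these values move with its Arntl level was not tested. Among the 10 lower genes the highest knockout value was most often in knockout replicate 2 (5 genes), and in replicate 1 for 4. Of the 16 called genes, 8 were called under every one of the 17 alternatives in which they were tested. These were Kcnk3, Trpv4, Kcns3, Cacnb3, Trpv6, Trpc1 and Kcnip3, all lower, and Trpc6, higher. The other 8 lost the call at least once. For Kcnip3 the count is of 16 alternatives, since the filter of 3 CPM left it untested. It entered the test only through its wild type libraries, where it is high. The share of all genes tested that kept the call under every alternative was not counted. Leaving out 1 library also changed the calls over all genes tested, to between 3385 and 4487 from 4351.

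**Figure D4:**
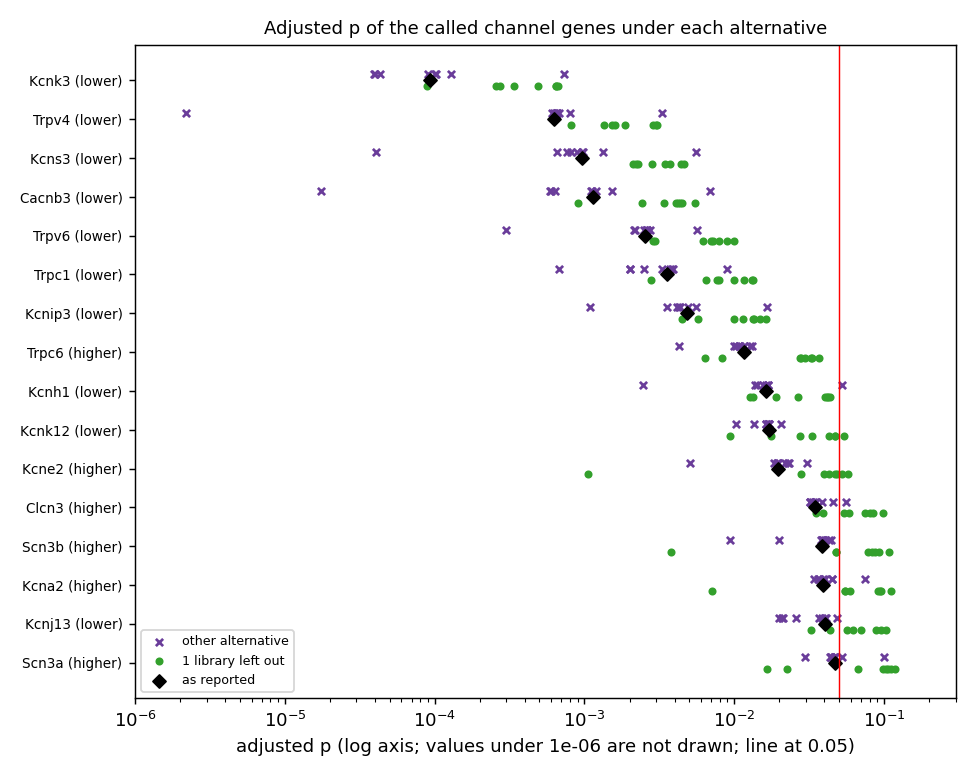
Adjusted p (x axis, log scale, line at 0.05) of the 16 called channel genes as reported (black diamonds), with 1 library left out (green points) and under the other alternatives (purple crosses). From Kcnk3 down to Trpc6 all points lie left of the line, and those to its right belong to the 8 genes listed below Trpc6; 1 value of Kcnk3 lies beyond the axis and is not drawn.

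Genes that work with these channels were read from 6 lists. Of 115 listed, 75 were measured and 68 tested, of which 12 rose and 6 fell (26.5%, against 30.9% of all genes tested). The number that fell was 3 without wild type replicate 3, knockout replicate 3 or knockout replicate 4. Other chloride and volume channels held most of the changes, with 8 of 19 tested higher and 2 lower. Ano1, the calcium-activated chloride channel of smooth muscle and airway epithelium, went from 63.4 ± 5.31 to 89.6 ± 6.79 CPM (log2 fold change 0.50, SE 0.0773, adjusted p = 0.000927). Of 9 calcium pumps, exchangers and mitochondrial uptake genes tested 2 rose and 2 fell, led by the plasma membrane pump Atp2b4, which went from 23.6 ± 1.56 to 32.3 ± 1.83 CPM (adjusted p = 0.00155). For store-operated entry and calcium release 1 of 13 rose and 1 fell. The one that rose was Orai3, a pore of store-operated entry, from 40.1 ± 2.54 to 50.9 ± 4.07 CPM (adjusted p = 0.0067). None of 3 potassium channel partners and none of 17 other cation channels passed the test.

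In the arm through which nitric oxide reaches ion channels, 1 of 7 genes rose and 1 fell. That is 28.6%, near the 30.9% of all genes tested. Gucy1b3, the β subunit of soluble guanylate cyclase, went from 115 ± 7.46 to 94.6 ± 8.58 CPM and fell by 0.29 (adjusted p = 0.0156). Gucy1a2, an α subunit, went from 6.89 ± 0.958 to 10.2 ± 2.55 CPM and rose by 0.52 (adjusted p = 0.0265), a call that ended without wild type replicate 1 or 4 (0.00696 to 0.0733 over all alternatives).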

How the data were processed

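CAGE libraries were made from total RNA of 4 wild type and 4 knockout lungs. The authors deposited 1 table of 15728 genes, in CPM rounded to 2 decimals. The submitters' processing notes name the build mm9 and, with no role or order, HISAT2 2.0.5, BWA 0.7.12-r1039 and edgeR. Not given in the sources used here are tag assignment, strand use and annotation, so overlapping genes are uncertain. Groups and replicate numbers came from the labels, and nothing in the labels says more of how the 4 samples of a genotype were taken.

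Whole reads were recovered from the CPM steps (100% of values whole within 0.1 reads). Between libraries of the same genotype the chi-square per gene was 11.28 to 19.1, so none looked like a repeat of another. With no molecular identifiers, reads may repeat a molecule, so the floor of 3 reads covers counting error only.

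A gene was tested if 4 or more libraries reached 1 CPM. On log2(CPM + 0.5), limma 3.58.1 was fitted (variance trend, two-sided, genotype as the only term), a scale that understates the change of low genes. Adjusted p are Benjamini-Hochberg values over all 14065 genes tested, called under 0.05. Alternatives were pseudocounts of 0.1 and 1, other filters, TMM and median-ratio scaling, edgeR 4.0.16 and DESeq2 1.42.0 on the recovered reads, a replicate block and leaving out each library.

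The genes, the lists and the tests were chosen with earlier results of these data known. Of the 57 genes that met the rule 5 are not reported here, and all counts are over the other 52. Each called gene of these is named. Values in every library are given for the 16 called genes and the most abundant gene of each role. Of the partner lists the called gene with the smallest adjusted p is named, and each called gene of the cGMP arm. Positions and neighbours came from GENCODE M21 (GRCm38), in which all 52 were found by Ensembl identifier. Of these 35 overlap another annotated gene and 9 a listed one. Matches to the first 200 nt were sought on either strand with blastn 2.17.0 (97% identity over 75 nt). Promoters came from RefSeq (GRCm38.p6).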

Additional observations from a re-analysis of the deposited data

Results flagged for a closer look

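In each genotype the highest or lowest of the 4 libraries was compared with the other 3 for the 52 channel genes, 5 partner genes (Ano1, Atp2b4, Orai3, Gucy1b3 and Gucy1a2) and 5 genes read beside them (Nos3, Arntl, Dbp, Kcnmb2 and Nppa). Of 124 such groups, 11 had 1 library apart from the rest, a gap that chance gives in about 1 of 20 groups. Kcnk2 was 28.95 CPM in knockout replicate 1, against 23.5 to 23.7 CPM in the other knockout libraries. Trpc6 in knockout replicate 1 was low at 20.5 CPM, against 23.3 to 23.7 CPM. In knockout replicate 2 Clcn6 (7.71 CPM, others 5.96 to 6.21 CPM) and Kcnq5 (3.18 CPM, others 1.93 to 2.12 CPM) were high. Cacna1d was low in knockout replicate 3, at 1.93 CPM against 3.05 to 3.18 CPM. Knockout replicate 4 was low for Cacna2d1 (4.61 CPM, others 7.35 to 7.45 CPM) and for Trpm4 (12.4 CPM, others 14.2 to 14.4 CPM). In wild type, Kcnj15 was high in replicate 2 (48.9 CPM, others 39.5 to 40.4 CPM) and Scn3a in replicate 3 (16.4 CPM, others 11.7 to 12.3 CPM). Arntl (7.22 CPM, others 20.5 to 22.8 CPM) and Dbp (40.28 CPM, others 4.69 to 6.21 CPM) stood apart in knockout replicate 1. Among the channel genes here Trpc6 and Scn3a were called between genotypes.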

How the results depend on the processing

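With 1 library left out in turn, 2 to 6 of the channel genes were higher and 8 to 10 lower, and 9 to 12 of the partner genes were higher and 3 to 6 lower. The other alternatives kept each of the 4 counts within 1.5 times the reported one. A stricter filter of 3 CPM tested 39 of the 52 genes and called 5 higher and 8 lower. TMM and median-ratio scaling and edgeR each called 7 higher and 10 lower, DESeq2 6 and 10. No called gene changed direction. The numbers of the replicates did not pair the libraries (correlations of same-numbered deviations -0.0029 to 0.065, and 1 of 4 numbers was correlated best with its own). With the replicate block 4 channel genes were higher and 9 lower, and 12 partner genes higher and 4 lower. Log2 fold changes of uncalled genes that lay near 0 turned sign. With 1 library left out they ran from -0.049 to 0.012 for Clcn7, -0.074 to 0.13 for Kcna3, -0.21 to 0.021 for Kcne4, -0.018 to 0.20 for Kcng1, -0.092 to 0.12 for Kcnn3, -0.20 to 0.012 for Kcnq1, -0.11 to 0.12 for Trpc4ap and -0.031 to 0.045 for Trpm6. Under TMM, median-ratio scaling, edgeR and DESeq2, Kcna3 was -0.017, -0.017, -0.010 and -0.0100, and Trpm6 -0.0088, -0.0085, -0.0080 and -0.0077. The cause was not tested. Genes near 1 CPM rest on few reads per library, which limits their precision.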

Other observations

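Of the 19 other chloride and volume channel genes tested, 8 including Ano1 were higher in the knockout, 2 were lower and 9 were not called. The called share was 52.6%, against 30.9% of all genes tested, in a list chosen with earlier results known. Clic4, an intracellular chloride channel protein abundant in lung endothelium, went from 895 ± 60.7 to 1226 ± 94.4 CPM (adjusted p = 0.00105). Lrrc8c, a subunit of the volume-regulated anion channel, went from 65.6 ± 5.41 to 89.4 ± 6.24 CPM (adjusted p = 0.00173). Ostm1, the β subunit of the lysosomal exchanger Clcn7, went from 40.1 ± 1.14 to 49.1 ± 3.05 CPM (adjusted p = 0.00708), while Clcn7 itself was not called. Best3, Clcc1, Ano6 and Cftr also rose, by 0.44, 0.27, 0.19 and 0.35 on the log2 scale. Of the 4 other Clic genes tested 2 fell, Clic3 from 322 ± 26.1 to 259 ± 28.4 CPM (adjusted p = 0.0161) and Clic6 from 43.5 ± 3.28 to 36.0 ± 3.02 CPM (adjusted p = 0.0252). Clic1 and Clic5 were not called, with log2 fold changes of 0.10 and -0.01. Names beyond Ano1 were chosen after their values were seen.

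Calcium pumps were divided too. Atp2a3, a pump of the endoplasmic reticulum, went from 94.7 ± 3.93 to 117 ± 3.12 CPM (adjusted p = 0.00221). Atp2a2, the reticulum pump of heart and smooth muscle, went from 129 ± 19.7 to 95.8 ± 16.4 CPM (adjusted p = 0.0266). The plasma membrane pump Atp2b2 went from 3.09 ± 0.608 to 1.47 ± 0.230 CPM (adjusted p = 0.00295), opposite to Atp2b4. Tmem38a, a cation channel of the reticulum membrane, fell by 0.27 on the log2 scale (adjusted p = 0.0451). These were also named after their values were seen.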
